A study of Oryza sativa with 6 samples.

Results

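The class III homeodomain leucine zipper (HD-ZIP III) genes of rice were read on the arrays through the 6 probe sets that the annotation assigns to HOX9, HOX10, HOX29, HOX32 or HOX33 alone, out of 57258 probe sets tested. These are all 5 genes of the family named here, out of 17905 genes with a probe set of their own. The rule that picks their probe sets uses names and no measured values. The family itself was chosen with earlier results of these data known. HOX10 had 2 probe sets and each of the other genes had 1. The arrays compared shoot tips of *Osrdr1*, a line of the japonica variety Hitomebore homozygous for an insertion of the retrotransposon *Tos17* in the second exon of *OsRDR1*, with those of its sibling WT, which segregated from the same selfed heterozygote. Each genotype had 3 biological replicates, 1 array each. Germination took 2 days in darkness at 28 °C, and the seedlings were harvested about 48 h after their move to a greenhouse, where the temperature was 26 °C and the daily light period 16 h. The mutant is a single insertion line, and 0 probe sets could be matched to *OsRDR1* by the tables used here, which leaves the genotype labels unchecked by the arrays. The study itself selected the genotypes by PCR and reported from RT-PCR that *OsRDR1* expression was lost in *Osrdr1* shoot tips.

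HD-ZIP III proteins carry a homeodomain, a leucine zipper and a START domain, and act as transcription factors. In Arabidopsis they specify the adaxial (upper) side of the leaf, keep the shoot meristem active and pattern vascular tissue. Their transcripts hold a site complementary to miR166 in the part that encodes the START domain, and cleavage there clears them from the abaxial (lower) side. This site is shared from mosses to grasses. RNA-dependent RNA polymerases act in the synthesis of small interfering RNAs rather than of miRNAs, and the study asked which genes change when one of them, RDR1, is lost. The study also sequenced small RNAs. It reported most known miRNAs at near equal abundance in both genotypes and some changed, and proposes a likely part of *OsRDR1* in how miRNAs accumulate. Between miRNAs and their predicted targets on the arrays it found no general relationship. For a subset it described changes in opposite directions and in the same direction.

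None of the 6 HD-ZIP III probe sets was called different between the genotypes, and all 6 had a lower mean in *Osrdr1*. HOX33 had the largest difference, -0.39 on the log2 scale, and came close to the threshold, while the other 4 genes differed by -0.09 to -0.24 in means whose 95% intervals include 0. At an adjusted p under 0.05 from limma over all probe sets, 2.08% of the 57258 probe sets were called in either direction with 0.506% lower and 1.57% higher, against 0 of 6 here. At an unadjusted p under 0.05, 1 of the 6 was lower, and 6.14% of all probe sets were. A mean below that of WT was seen for 54.2% of all probe sets, and the median difference of all probe sets was -0.015. The median over the 5 genes, each read on its brightest probe set, was -0.14, beside 0.004 for all 17905 genes read in the same way.

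HOX33, on chromosome 12, is a member whose silencing is known to hasten leaf senescence in rice. Its probe set Os.32984.1.S1_at had log2 values of 9.41, 9.33 and 9.39 in *Osrdr1* replicates 1, 2 and 3, and of 9.84, 9.82 and 9.65 in the WT replicates. All *Osrdr1* values lay below all WT values, and the gap between the highest *Osrdr1* and the lowest WT array was 0.24, several times the spread within *Osrdr1*. The means were 9.38 ± 0.04 and 9.77 ± 0.10 (SD, n = 3 each). The difference of -0.39 (standard error 0.08, 95% interval -0.58 to -0.20) corresponds to 0.763 times the WT signal, with an interval of 0.669 to 0.87. Its unadjusted p was 0.00168 and its adjusted p 0.0619 from limma, where the largest unadjusted p among called probe sets was 0.00104. A smaller p was found for 2.72% of all probe sets.

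The call on HOX33 depended on the processing. It passed in limma when probe sets dimmer than the median were left out (adjusted p = 0.0391, where 1.98% of probe sets were called lower), after a further quantile normalization (difference -0.44, adjusted p = 0.0272, where 1.09% were called lower), and with an intensity trend and robust prior (adjusted p = 0.0218, where 1.48% were called lower). It also passed when the fit held 1 probe set per gene (adjusted p = 0.0252, where 3.62% of genes were called lower) or the mean of each gene's probe sets (adjusted p = 0.0246, where 3.36% were called lower). With arrays centred on their medians it had -0.36 (adjusted p = 0.127 from limma, where 180 of 57258 probe sets were called lower). Without WT replicate 3, the WT array with the lowest HOX33 value, the difference was -0.45 (adjusted p = 0.0399 from limma, where 0.732% of probe sets were called lower), and without any other single array the adjusted p lay between 0.182 and 0.209. Few probe sets of any kind were called lower in those other fits. Of 57258, 21 were without *Osrdr1* replicate 2, 22 without WT replicate 2 and 0 without the remaining arrays.

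**Figure D1:**
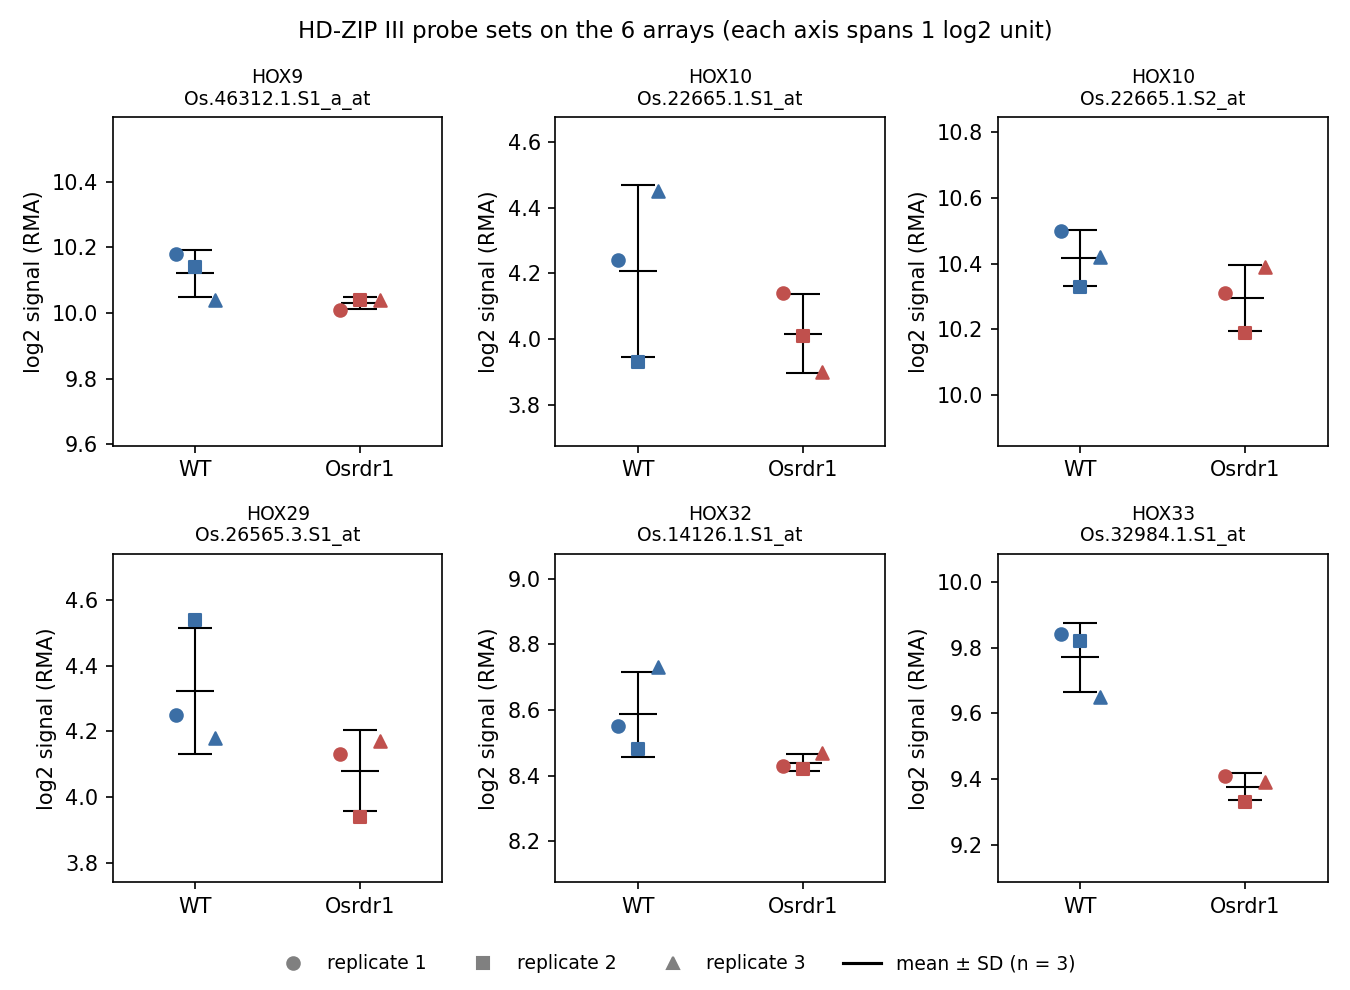
Log2 signal of the 6 HD-ZIP III probe sets on each array, WT in blue and *Osrdr1* in red, with the replicate number as the symbol and bars for the mean ± SD (n = 3). Each vertical axis spans the same range on the log2 scale; HOX33 is the probe set with a gap of 0.24 between the genotypes, while those of the others nearly touch or overlap.

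HOX32, on chromosome 3, is known in rice for narrow, rolled leaves when overexpressed. Its log2 values on Os.14126.1.S1_at were 8.43, 8.42 and 8.47 in *Osrdr1* and 8.55, 8.48 and 8.73 in WT. The *Osrdr1* arrays again lay below the WT arrays, but by a gap of 0.007 only, and WT replicate 3 was the highest of all. The difference of -0.14 (standard error 0.09, 95% interval -0.35 to 0.06) did not pass (adjusted p = 0.547 from limma). Without WT replicate 3 it shrank to -0.07 (adjusted p = 0.67).

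HOX9 and HOX10 were the brightest of the family, at the 92.1 and 93.5 percentiles of mean signal over all probe sets. Levels of different probe sets cannot be set against each other as amounts of RNA, since probes bind unequally, but both signals were far above the bottom of the scale. HOX9, also listed as OsHB2 and located on chromosome 10, had log2 values on Os.46312.1.S1_a_at of 10.01, 10.04 and 10.04 in *Osrdr1* and 10.18, 10.14 and 10.04 in WT. WT replicate 3 lay within the *Osrdr1* values and the other 2 WT arrays above them. The difference was -0.09 (standard error 0.07, 95% interval -0.26 to 0.09, adjusted p = 0.686 from limma), so a decrease beyond 0.834 times the WT signal lies outside the interval.

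HOX10, also listed as OsHB1 and located on chromosome 3 like HOX32, had on its brighter probe set Os.22665.1.S2_at log2 values of 10.31, 10.19 and 10.39 in *Osrdr1* and 10.50, 10.33 and 10.42 in WT. The genotypes overlapped, with *Osrdr1* replicate 3 above WT replicate 2. The difference was -0.12 (standard error 0.09, 95% interval -0.32 to 0.08, adjusted p = 0.626 from limma). The other probe set of HOX10, Os.22665.1.S1_at, read 4.14, 4.01 and 3.90 in *Osrdr1* and 4.24, 3.93 and 4.45 in WT, below the array medians of 4.87 to 4.96. It is not known to be above background, because no detection calls were used. Its difference of -0.19 (standard error 0.14, adjusted p = 0.628) had the same sign as that of the brighter probe set, and it read -0.33 without WT replicate 2 and -0.07 without WT replicate 3.

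HOX29, also listed as OSHB5 and located on chromosome 1, was dim on its own probe set. Os.26565.3.S1_at had log2 values of 4.13, 3.94 and 4.17 in *Osrdr1* and 4.25, 4.54 and 4.18 in WT, all below the array medians. The *Osrdr1* values lay below the WT values with a gap of 0.011, and the difference was -0.24 (standard error 0.12, 95% interval -0.52 to 0.03, adjusted p = 0.426 from limma). The difference was -0.13 without WT replicate 2, the highest array. A further probe set, Os.46441.1.S1_at, is assigned both to HOX29 and to another gene, LOC9266840, and was not counted as a member. It was brighter and did not separate the genotypes, with 8.56, 8.12 and 8.45 in *Osrdr1* and 8.53, 8.64 and 7.91 in WT (difference 0.02, 95% interval -0.46 to 0.50, adjusted p = 0.982 from limma). Which of these genes it reads cannot be told from the tables.

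**Figure D2:**
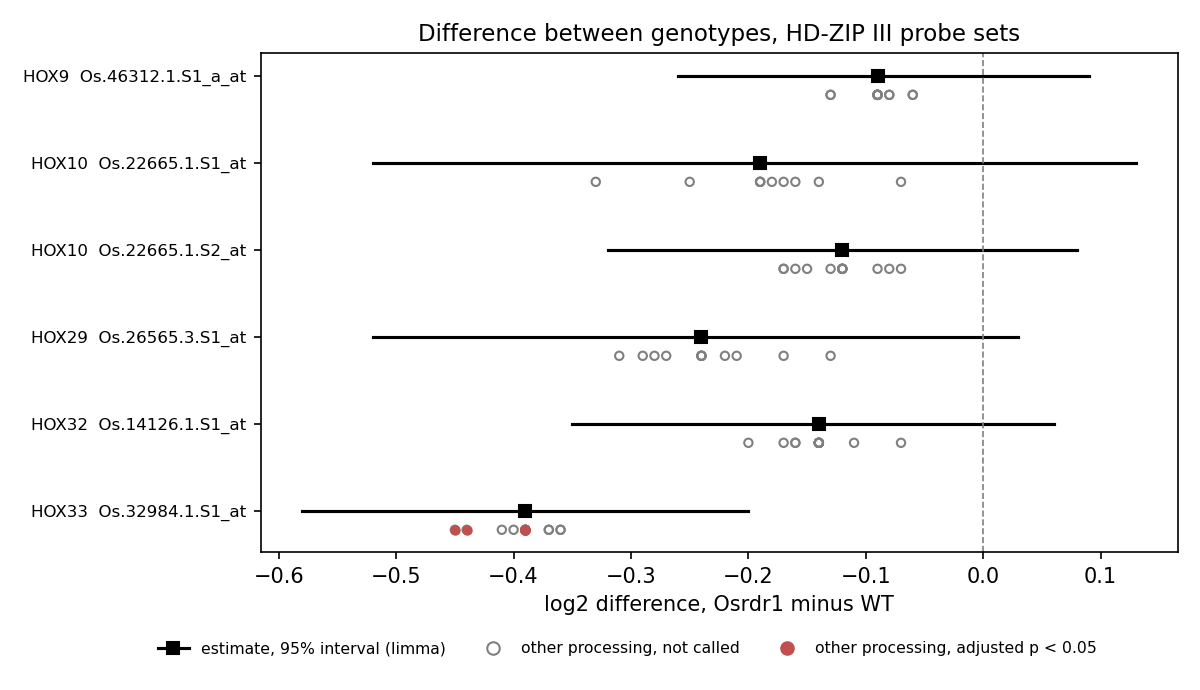
Log2 difference between *Osrdr1* and WT of each HD-ZIP III probe set with its 95% interval from limma (black), and below it the same difference under the other settings of processing and with single arrays left out (circles, filled red where the adjusted p was under 0.05). All values lie below 0, and red circles appear for HOX33 alone. Settings that change only the filter, variance model or block repeat the black value by construction.

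Separation of the genotypes was seen for 3 of the 6 probe sets, those of HOX29, HOX32 and HOX33, each with the *Osrdr1* arrays lower. Among all probe sets 8.83% were separated in this direction, and 13.1% of the brighter 28629, while the gaps for HOX29 and HOX32 were near 0. The spread within WT exceeded that within *Osrdr1* for 5 of the 6, with SDs of 0.08 to 0.26 in WT and 0.02 to 0.12 in *Osrdr1*. WT replicates 2 and 3 also stood apart over all genes. In these, 296 and 477 probe sets lay more than 2-fold from the mean of the other WT arrays, against 86 in WT replicate 1 and 23 to 29 in the *Osrdr1* arrays, with 0 HD-ZIP III probe sets among them.

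The members were then set against each other on the same array, which removes any shift shared by all genes of an array. The log2 signal of HOX33 minus that of HOX9 was -0.59, -0.71 and -0.66 in *Osrdr1* and -0.34, -0.32 and -0.38 in WT. Relative to HOX9, HOX33 was thus lower by 0.30 in *Osrdr1*, with SDs of 0.06 and 0.03 and no overlap. Relative to HOX10 the change was -0.27, with -0.92 ± 0.08 in *Osrdr1* against -0.65 ± 0.13 in WT (SD, n = 3 each), again with no overlap. Relative to HOX32 it was -0.25 and relative to HOX29 -0.15, and in both the arrays overlapped. Between pairs without HOX33 the change ran from -0.02 to -0.16, with no pair separated. Of the 10 pairs, compared after the values had been seen, the smallest exact permutation p (two-sided) was 0.1, which is the smallest that 3 against 3 arrays allow, and the smallest adjusted p over the pairs was 0.5. The exact test could thus not have passed 0.05 for any pair, and it does not show whether the members differ in their response.

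**Figure D3:**
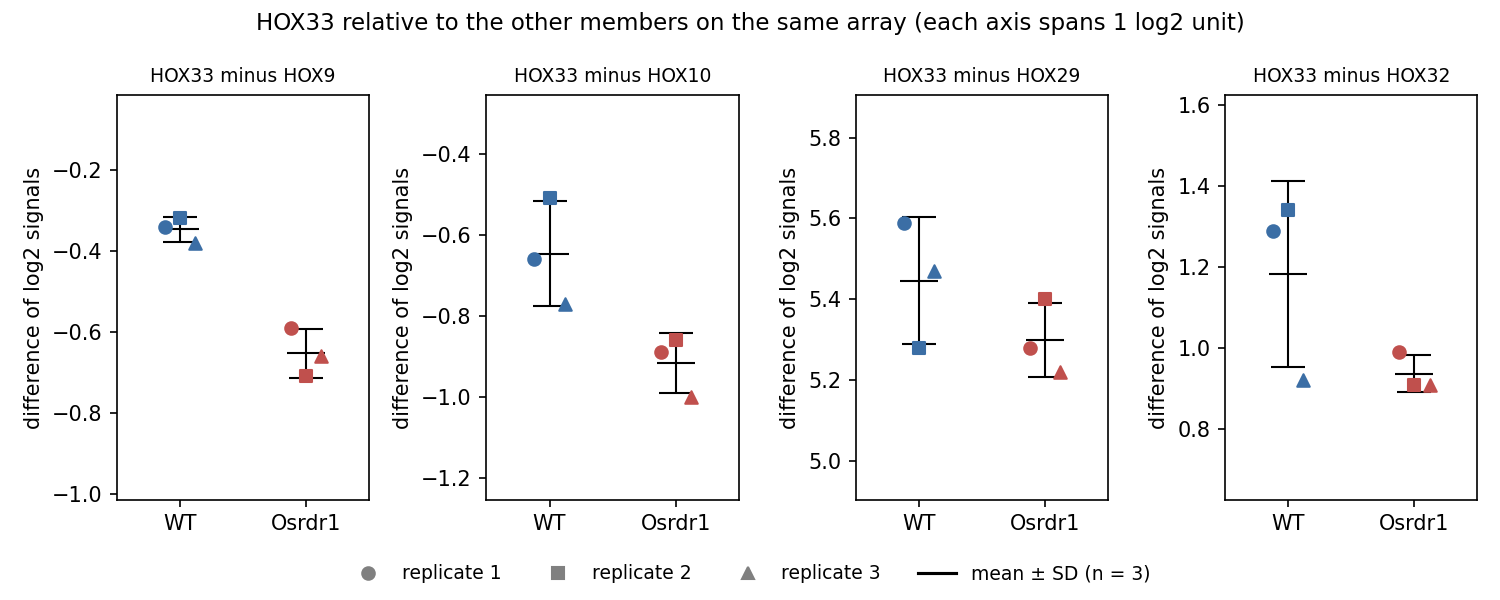
Log2 signal of HOX33 minus that of each other HD-ZIP III gene on the same array (brightest probe sets), WT in blue and *Osrdr1* in red, symbols for replicates and bars for the mean ± SD (n = 3). The genotypes are apart for HOX9 (change -0.30) and HOX10 (-0.27) and overlap for HOX29 (-0.15) and HOX32 (-0.25).

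The other HD-ZIP classes had medians nearer to that of all genes. Of class I, whose members act largely in responses to water and light, 12 of 14 listed genes were measured, limma called 0 (1 lower and 2 higher at an unadjusted p under 0.05), and the median difference was -0.01. HOX14 had the smallest p of them (-0.26, adjusted p = 0.277 from limma), followed by HOX22 (0.28, adjusted p = 0.313). Both were dim, with means below the array medians. HOX14 had 3.77 in *Osrdr1* and 4.03 in WT, and HOX22 had 4.65 and 4.37. Class II, with members known from auxin and shade responses, had 8 of 12 genes measured, 0 called (1 higher at an unadjusted p under 0.05) and a median of 0.02. Here HOX15 (0.28, adjusted p = 0.341) and HOX1 (0.21, adjusted p = 0.582) had the smallest p. Class IV, which acts in the epidermis and shares the START domain with class III, had 9 of 10 measured, 0 called (1 lower and 2 higher at an unadjusted p under 0.05) and a median of -0.04. ROC3 had -0.44 (adjusted p = 0.0724) and TF1 0.34 (adjusted p = 0.167). Among genes read on their brightest probe set, 1.13% were called lower and 3.44% higher. An unadjusted p under 0.05 was found for 8190 of all 57258 probe sets, in either direction. In the fit with 1 probe set per gene it was found for 5105 of 17905 genes.

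Among other genes of leaf polarity, 13 of 22 listed names were measured. Of these, 2 were called lower and 0 higher (4 lower and 0 higher at an unadjusted p under 0.05). Among all genes on their brightest probe set, 1.13% were called lower and 3.44% higher. A negative difference was seen for 11 of the 13, where 49% of all genes had one. The median of the list was -0.18. Both called genes encode YABBY factors, which in Arabidopsis promote the abaxial side of the leaf. The other YAB genes measured, YAB1 (LOC4342449, -0.04), YAB2 (LOC4333584, -0.05) and YAB6 (LOC4352818, 0.19), were not called (adjusted p from 0.478 to 0.897 from limma). The names of rice YABBY genes overlap in the gene table, so the locus numbers are given. The gene listed as OsYAB3 (LOC4336518) read 8.87, 8.83 and 9.09 in *Osrdr1* and 10.17, 9.74 and 10.08 in WT. It fell by 1.07 on the log2 scale (standard error 0.13, adjusted p = 0.0168 from limma). The gene listed as YAB4 and also as OsYAB7 (LOC4330130) had 7.52 ± 0.20 in *Osrdr1* and 8.14 ± 0.06 in WT (SD, n = 3 each) and fell by 0.62 (adjusted p = 0.045 from limma). The genotypes were separated for both, as for HOX33. Of the 52 genes of the related lists, these 2 among them, limma called 0 when any 1 *Osrdr1* array or WT replicate 1 was left out or the replicate number was a block, 1 without WT replicate 2 and 4 without WT replicate 3. Over all 57258 probe sets it called 0 without *Osrdr1* replicate 1 or 3 or with the block. It called 140 higher and 21 lower without *Osrdr1* replicate 2, and 1 and 0 without WT replicate 1. Without WT replicate 2 the counts were 159 and 22, and without WT replicate 3 they were 801 and 419.

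Of the proteins that load or make miR166, 5 of 15 listed names were measured, with 0 called (1 lower and 1 higher at an unadjusted p under 0.05) and a median of 0.02. All 5 are argonautes, and none of the listed proteins that make miRNAs, such as DCL1 and HEN1, was measured. PNH1 is the rice counterpart of the Arabidopsis argonaute AGO10, which binds miR166 and withholds it from AGO1. Its difference was -0.10 (standard error 0.08, adjusted p = 0.68 from limma). The AGO1 genes had differences between -0.18 for AGO1B (adjusted p = 0.326) and 0.39 for AGO1D (adjusted p = 0.132). Of the vascular and auxin transport list, 6 of 23 names were measured, 0 were called (1 higher at an unadjusted p under 0.05), and the median was 0.03. PIN5A had the smallest p there (0.73, adjusted p = 0.0511 from limma), and PIN2 the next (-0.37, adjusted p = 0.48). On average 4 of the 6 lay below the array medians, PIN5A and PIN2 among them. PIN5A had means of 5.02 in *Osrdr1* and 4.29 in WT, and PIN2 of 3.95 and 4.32.

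**Figure D4:**
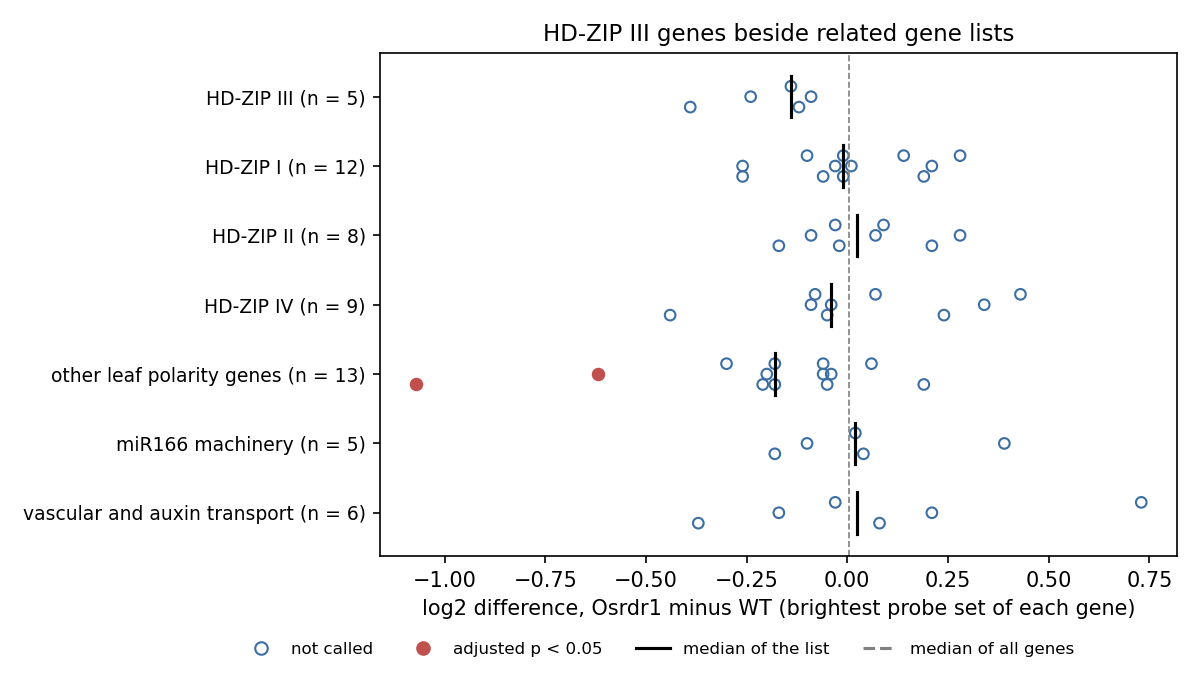
Log2 difference between *Osrdr1* and WT of single genes, each on its brightest probe set, for HD-ZIP III and 6 related lists, with a bar at the median of each list and a dashed line at the median of all genes. Filled red circles, the 2 genes with an adjusted p under 0.05, lie in the list of other leaf polarity genes at -1.07 and -0.62.

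Several markers of tissue and cell state moved with genotype in the same arrays. Over all genes, 1.13% were called lower and 3.44% higher on their brightest probe sets. Of the 9 measured markers on the shoot meristem list, limma called 1 lower, OSH71 (-2.43, adjusted p = 0.0457), and 2 higher, OSH45 (0.67, adjusted p = 0.0211) and HOS66 (0.74, adjusted p = 0.0357). Of the same 9, the 5 of the class I knotted genes, which mark meristem cells, had a summed linear signal of 124 to 237 in *Osrdr1* and 311 to 786 in WT. The 4 of class II, which are expressed in maturing organs, summed to 5453 to 5935 in *Osrdr1* and 4114 to 4415 in WT, a split made after the values were seen, and the whole list to 5658 to 6059 and 4425 to 5114. OSH1, a defining gene of the meristem, had log2 values of 6.31, 4.62 and 3.71 in *Osrdr1* and 7.63, 8.28 and 6.15 in WT (adjusted p = 0.162 from limma), so that it lay under the array medians on 2 of the *Osrdr1* arrays. Of the dividing cell markers, 2 of 6 were called lower, CYCB2-1 (-0.46, adjusted p = 0.0368 from limma) and CDKB2-1 (-0.51, adjusted p = 0.0229). CYCB2-2 (-0.37), CYCB1-3 (-0.31), CDKA-1 (0.06) and CDKA-2 (-0.01) were not called. The sum of the 6 was 4999 to 5412 in *Osrdr1* and 5798 to 6612 in WT. Of the green leaf markers, 4 of 8 were called higher, and their sum was 41669 to 42454 in *Osrdr1* and 28897 to 33259 in WT. Seed storage proteins, 5 measured, summed to 177 to 208 in *Osrdr1* and 129 to 160 in WT. Of these only GLUA-2 was called higher (0.70, adjusted p = 0.0425 from limma), while the other 4, which lay below the array medians on average, had differences of -0.12 to -0.01. The part of these markers in the values of HOX33 and the other HD-ZIP III genes was not tested, and fewer cells that express a gene cannot be told apart from less of its RNA per cell in whole shoot tips.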

How the data were processed

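Expression was measured in shoot tips of 3 *Osrdr1* and 3 sibling WT samples, 1 Affymetrix Rice Genome Array each. According to the submitters' processing notes, the authors made the deposited log2 values from the scans with RMA in Affymetrix Expression Console, which corrects background, equalizes quantiles between arrays and summarizes probe sets. No version of that program is stated, and no detection calls were used. Of 57381 probe sets, 123 controls were left out, and limma 3.58.1 under R 4.3.3 fitted the other 57258 with genotype as the only term. P-values were adjusted over all of them by the Benjamini-Hochberg method, and calls were made below 0.05 whatever the fold. The fit was checked on simulated arrays. Tables and figures used Python 3.11.15, pandas 2.3.3 and matplotlib 3.10.9.

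The array's annotation, joined to a rice gene table, gave the gene of each probe set. Lists used each gene's brightest probe set over the 6 arrays. The text names every member probe set, each list's called genes (otherwise the 2 genes with the smallest p), and for each member the 3 genes with the most similar pattern. Markers of tissue are given as sums or values. Members and lists were chosen with earlier results of these data known. Samples were grouped by the genotype in their labels. The alternatives changed the filter, scaling, variance model, probe set rule, call rule, block and arrays included. The small RNA data of the study, which cover miR166, were not analysed here. Nothing in the labels says that arrays of the same number share a batch. The precision is limited by 3 arrays per genotype.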

Additional observations from a re-analysis of the deposited data

How the results depend on the processing

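In all 74 values of a member probe set under another setting or without 1 array, the difference stayed below 0, from -0.45 to -0.06. Many of these could not differ from the reported value. The dim filter, the intensity trend, the replicate block and 1 probe set per gene leave a difference unchanged by construction. The mean of a gene's probe sets changes HOX10 alone. The count of member probe sets called was 0 as reported and 1, HOX33, without dim probe sets, after a further quantile normalization, with an intensity trend and robust prior, with 1 probe set per gene and with the mean of a gene's probe sets. HOX33 then had -0.39, -0.44, -0.39, -0.39 and -0.39 respectively. With single arrays left out the count was 0 to 1, and HOX33 had -0.45 to -0.36. HOX9 had -0.13 to -0.06 and HOX10 -0.17 to -0.07 on its brighter and -0.33 to -0.07 on its dimmer probe set over the alternatives, HOX29 -0.31 to -0.13 and HOX32 -0.20 to -0.07, and none was called. No member passed an unadjusted p under 0.05 together with 1.5-fold. Of the 52 genes of the related lists 2 were called as reported, 4 with the intensity trend, 4 with 1 probe set per gene, 4 with the mean of a gene's probe sets, 0 with the replicate block and 0 to 4 without single arrays. Over all probe sets, limma called 901 higher and 290 lower as reported, 1415 and 566 of 28629 without dim probe sets, 1847 and 849 with the intensity trend, 963 and 626 after quantile normalization, and 1041 and 180 with centred arrays. It called 0 without *Osrdr1* replicate 1 or 3 (6345 and 6426 at an unadjusted p under 0.05). Of 17905 genes it called 1419 higher and 648 lower with 1 probe set per gene. With the mean of a gene's probe sets it called 1329 and 601 of them. Deviations from the genotype means had r = 0.138, -0.147 and -0.271 between arrays of the same replicate number, for replicates 1 to 3. These did not share a sign, so the numbers were not used as pairs in the reported fit. With 3 arrays per genotype the check cannot exclude a shared batch. With the replicate block HOX33 had -0.39 (adjusted p = 0.189), 0 member probe sets were called, and over the whole array limma made 0 calls (6862 with an unadjusted p under 0.05). Dim filtering leaves out HOX29 and the dimmer probe set of HOX10.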

Other observations

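The genes whose pattern over the 6 arrays was most like that of a member were sought among the 81 measured genes whose symbol is a name rather than a locus number, each on its brightest probe set. The likeness is given by Pearson's r over the 6 arrays as a description, since the points fall into 2 genotypes. For HOX33 these were GATA15 (r = 0.962), also known as NL1 and acting in the inflorescence, the calcium-dependent kinase CPK24 (r = 0.958) and BIP1 (r = 0.947), a chaperone of the endoplasmic reticulum. GATA15 had log2 values of 5.02, 4.68 and 4.71 in *Osrdr1* and 5.45, 5.44 and 5.26 in WT, so that it was lower in *Osrdr1* on every array (-0.58, adjusted p = 0.0526 from limma). CPK24 differed by -0.38 (adjusted p = 0.071) and BIP1 by -0.33 (adjusted p = 0.0767), and none of the 3 was called.

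The other members had likenesses of 0.815 to 0.961. HOX9 was followed by MAGO2 (0.909), FEN1A (0.904) and RTFL3 (0.856), and HOX10 by AIP1 (0.961), wsl8 (0.893) and PRX112 (0.843). HOX29 was followed by TGAL4 (0.892), TPR3 (0.855) and XAT2 (0.815). For HOX32 the closest was cob (0.927), whose WT replicate 3 read 9.19 where the other 5 arrays read 8.22 to 8.42, then KIN14I (0.898) and RPL7A-1 (0.853). None of these 12 was called by limma (adjusted p from 0.144 to 0.855).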
